A study of Mus musculus with 8 samples.

Results

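The genes described here are the core of the Notch pathway as it is represented on a mouse expression array: the 4 receptors Notch1, Notch2, Notch3 and Notch4, the 3 ligands Jag1, Jag2 and Dll1, and the 3 nuclear targets Hes1, Hey1 and Heyl. Members were all non-control probes that carried one of these 10 gene names in the scanner files, which gave 10 of 36095 names on the array, with 12 of its 55681 probes. Notch receptors are single-pass membrane proteins that bind Jagged and Delta-like ligands on a neighbouring cell. Binding lets an ADAM protease and then gamma-secretase cut the receptor, and the freed intracellular domain enters the nucleus, where it joins the DNA-binding protein RBPJ. The genes switched on in this way include the Hes and Hey families, which encode basic helix-loop-helix repressors. In mesenchymal cells the pathway is best known in the mural cells of blood vessels, where Notch3 is a main receptor, and from the holding back of several differentiation programmes.

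RNA came from Csk-/- MEFs, that is, embryonic fibroblasts of mice without Csk, which normally holds Src family kinases in check. The cells had been transfected with pBKT2-c-Src, a vector from which doxycycline (1 µg/ml) induces c-Src. All groups shared the Csk deletion and the vector, and they differed in the time of induction: 0, 6, 24 or 72 h, with 2 one-colour arrays at each of the 4 times and 8 arrays in all. The labels state that samples were run in duplicate and do not state separate cultures. The spread behind every p-value is therefore that of duplicate arrays and possibly only technical. Exposure to doxycycline, time in culture and the row on the slide followed the time of induction, and c-Src cannot be told apart from them.

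The quality of the arrays was even. Each held 59305 non-control spots, with 49.9% to 54.7% of them well above background and 0 saturated. Replicate arrays had a Pearson correlation over genes of 0.9964 to 0.9975. The scaled signal of Src was 149 and 166 at 0 h, 4190 and 4280 at 6 h, 3730 and 3770 at 24 h, and 3090 and 3080 at 72 h. Scaled signal here is the processed intensity of a probe after the 75th percentile of every array was set to the same value, and it is comparable for one probe across arrays but not between probes. The Csk probe stayed at background on all 8 arrays, and whether it lies in the deleted part of the gene was not given in the sources used here. Of 10 fibroblast markers, 7 were well above background on all 8 arrays and Thy1 was on none. The 4 skeletal muscle markers were on none either, nor were the endothelial Cdh5, Emcn, Tie1, Esam, Erg and Cldn5, the epithelial Epcam, Cdh1 and Cldn4, or the macrophage Ptprc, Adgre1, Lyz2 and Fcgr3.

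Promoter sequence is given for 3 members whose changes by 24 h are described here, Jag1 and Notch3, which fell together, and Jag2, which rose. Hes1, Hey1 and Heyl were not matched to the RefSeq table. Each sequence runs 5′ to 3′ over the 250 bases before the RefSeq start of the gene on the GRCm38.p6 build, on the minus strand of the chromosome. The motifs searched, on both strands, were TGGGAA, the core that RBPJ binds, its longer form GTGGGAA, which contains it, and 3 forms bound by Hes and Hey proteins. The first of these is CACGTG, another reads CACGCG, and the last reads CACNAG with any base at the N. Capitals mark CACGCG or CACNAG and their reverse complements.
Jag1, chr2:137116521-137116770: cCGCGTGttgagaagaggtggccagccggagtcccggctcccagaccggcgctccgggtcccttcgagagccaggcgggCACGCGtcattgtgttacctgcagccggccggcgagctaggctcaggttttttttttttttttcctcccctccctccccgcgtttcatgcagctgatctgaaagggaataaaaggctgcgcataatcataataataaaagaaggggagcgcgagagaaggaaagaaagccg
Jag2, chr12:112929496-112929745: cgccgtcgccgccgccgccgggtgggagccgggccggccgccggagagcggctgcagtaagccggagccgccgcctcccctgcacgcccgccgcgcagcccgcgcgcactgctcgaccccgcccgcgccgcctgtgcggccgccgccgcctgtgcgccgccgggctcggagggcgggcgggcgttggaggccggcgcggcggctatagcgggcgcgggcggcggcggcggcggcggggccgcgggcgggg
Notch3, chr17:32166891-32167140: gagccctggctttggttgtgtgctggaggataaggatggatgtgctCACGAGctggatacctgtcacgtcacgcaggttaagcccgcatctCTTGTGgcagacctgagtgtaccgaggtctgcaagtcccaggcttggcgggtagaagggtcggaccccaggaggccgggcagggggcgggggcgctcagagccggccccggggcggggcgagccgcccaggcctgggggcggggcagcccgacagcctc
The Jag1 sequence holds CACGCG at 249 and 171 bases before the start and is 57.2% G and C. The Jag2 sequence holds none of the motifs in these 250 bases and is 87.2% G and C, but it holds CACGCG just after the start, in the part of its window that is not printed. In the Notch3 sequence CACNAG starts 204 and 159 bases before the start. Over windows of 300 bases, from 250 before to 50 after the start, CACGCG was present in 9.27% and CACNAG in 42.5% of 32851 mouse promoters. Counted over that window, CACGCG was present for Jag1 and Jag2 alike, and also for Notch2 and at 1 of the Dll1 starts. TGGGAA was present in 25.6% of them and in 0 of the 8 windows found for 7 members. A match of letters is a description and not a site of binding.

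With c-Src induction the Notch genes moved mostly downwards, and they did so late. By 72 h Hey1 fell furthest, Jag1, Notch3, Notch4, Hes1 and Dll1 also fell, and Jag2 alone among the 9 tested genes was called higher. Hes1 differed from 0 h by 0.42 at 6 h and was not called there. Heyl did not clear background on any of the 8 arrays and was not tested. At 6 h, 1 of 9 tested members passed the test (limma, adjusted p under 0.05 over 20840 genes), and it was lower. Among all genes tested, 17.6% were called at that time, 10.3% as higher and 7.24% as lower. At 24 h, 5 members were called against 0 h, 1 higher and 4 lower, where 41.5% of all genes were called, 21.4% as higher and 20.1% as lower. At 72 h, 7 members were called, 1 higher and 6 lower, where 52% of all genes were called, 27.5% as higher and 24.6% as lower. The median log2 difference of the 9 members from 0 h was -0.226 at 6 h, -0.332 at 24 h and -0.669 at 72 h, beside 0.00484, -0.0161 and 0.00155 over all genes. With 1 array left out in turn, the count at 6 h was 0 without either 0 h array or the second 6 h array and 3 without either 24 h array, and the count at 72 h was 7 each time.

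**Figure D1:**
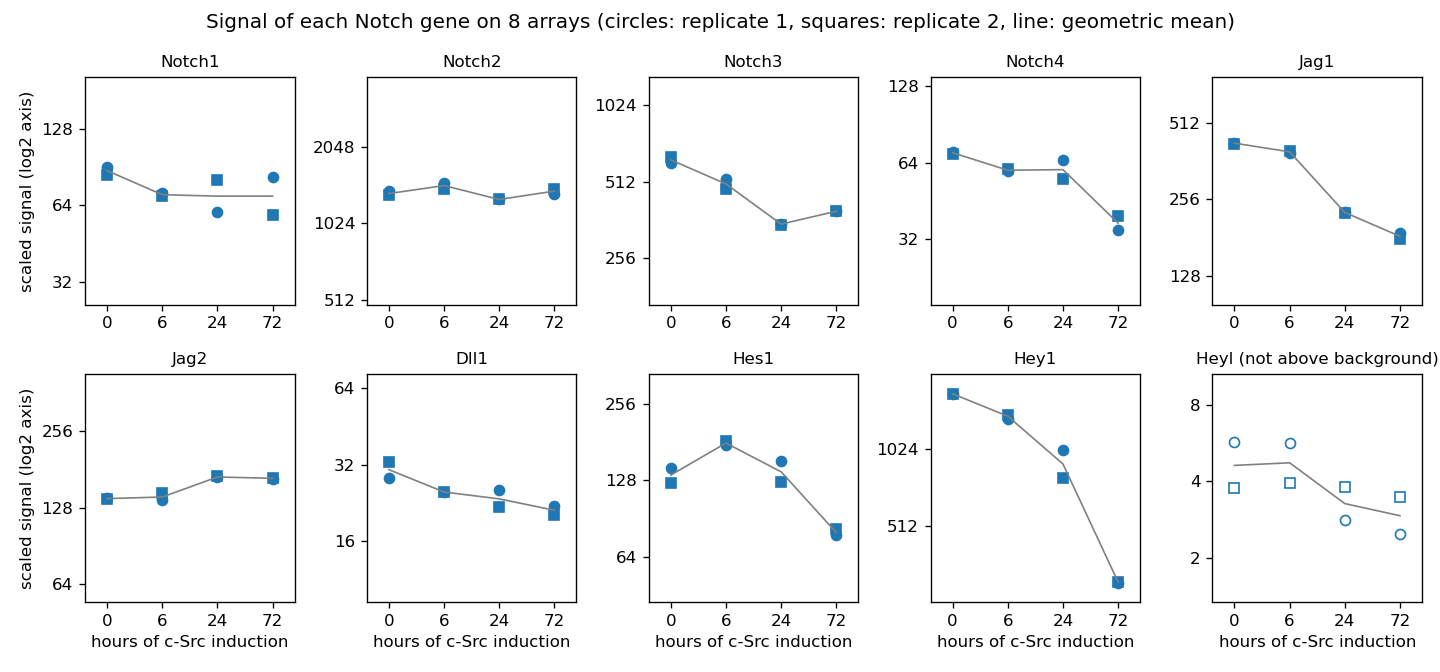
Scaled signal (log2 axis) of the 10 Notch genes against hours of c-Src induction, with a point for each of the 8 arrays and a line through the geometric mean of each time; open points were not well above background. Hey1 falls to 306 and 309 at 72 h, against 1680 and 1690 at 0 h, while Notch2 lies between 1270 and 1480 on all arrays.

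Among the receptors, Notch3 was called lower at every induced time. Its probe (chr17:32257848-32257907, minus strand, on the mm9 build, as for all probe positions here) gave scaled signals of 609 and 639 at 0 h, 526 and 479 at 6 h, 350 and 347 at 24 h, and 393 and 392 at 72 h. The arrays of the 3 induced times all lay below both arrays at 0 h. The log2 difference from 0 h was -0.31 ± 0.06 (SE) at 6 h (limma, adjusted p = 0.0205), -0.84 at 24 h (adjusted p = 0.00035) and -0.67 at 72 h (adjusted p = 0.000404), so that Notch3 stood 1.79-fold below 0 h at 24 h. The difference between 72 h and 24 h, 0.17, did not pass the test (limma, adjusted p = 0.0958). The call at 6 h was lost in 6 of 20 alternative settings, among them the fits without either 0 h array (adjusted p = 0.0626 and 0.0939) and without the second 6 h array (-0.25, adjusted p = 0.0931). Its calls at 24 and 72 h were kept in all 20. Notch1 had a difference of the same size at 6 h that did not pass (-0.31, limma adjusted p = 0.332), and the difference between the receptors was not tested.

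Notch4, the receptor best known from endothelium, was called against 0 h at 72 h and at no earlier time. The probe (chr17:34725120-34725179, plus strand) gave 70.3 and 69.4 at 0 h, 59.2 and 60.3 at 6 h, 65.2 and 55.3 at 24 h, and 34.8 and 39.4 at 72 h. The arrays at 6 and 24 h overlapped, and both arrays at 72 h lay below all others. Notch4 was 1.89-fold lower at 72 h than at 0 h (log2 difference -0.92 ± 0.10, limma adjusted p = 0.000732) and 1.62-fold lower than at 24 h (adjusted p = 0.00871). The differences from 0 h were -0.23 at 6 h (adjusted p = 0.166) and -0.22 at 24 h (adjusted p = 0.123). With normexp background correction, which adds 50 to each signal and so compresses dim probes, the difference at 72 h was -0.39, and the call was kept. Without the first 72 h array the step between 24 and 72 h was -0.61 and did not pass (adjusted p = 0.0521), and without the first 24 h array the difference at 24 h was -0.34 and did (adjusted p = 0.0393).

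No change was called for Notch1 or Notch2 at any time. Notch1, the receptor most widely used across tissues, gave 90.6 and 84.5 at 0 h, 71.4 and 69.4 at 6 h, 60.2 and 80.2 at 24 h, and 82.6 and 58.5 at 72 h. The 2 arrays at 24 h and at 72 h were far apart for this gene. The log2 difference at 72 h was -0.33 ± 0.20, with a 95% interval of -0.824 to 0.159 (limma, adjusted p = 0.211), so that a fall of the size measured for Notch3 lies inside the interval. For Notch2 the spread was small, with 1370 and 1320 at 0 h, 1480 and 1400 at 6 h, 1280 and 1270 at 24 h, and 1330 and 1400 at 72 h. Its difference at 72 h was 0.03, with a 95% interval of -0.102 to 0.159 (limma, adjusted p = 0.684), which leaves out falls of the size seen for Notch3 and Notch4. Between 6 and 24 h Notch2 differed by -0.18 and just missed the threshold (limma, adjusted p = 0.0551). That difference passed in 2 of 20 alternatives, with the filter for signal on all 8 arrays (adjusted p = 0.0455) and with a trend (adjusted p = 0.0227).

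Notch1 and Notch2 each had a second probe, whose signal stayed at background throughout. The probes differ in the part of the transcript they match. The 60 bases of the Notch1 probe that gave a signal and of the silent Notch2 probe are shown, since the level reported for a gene rests on which of its probes gave a signal.
Notch1, signal on 8 arrays, chr2:26319440-26319499, minus strand, mm9: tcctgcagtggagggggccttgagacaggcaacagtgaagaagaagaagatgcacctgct
Notch2, at background, chr3:97951233-97951292, plus strand, mm9: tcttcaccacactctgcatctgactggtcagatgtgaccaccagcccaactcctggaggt
The silent probes had scaled signals of 2.31 to 3.59 for Notch1 (chr2:26314630-26314689) and 4.21 to 17.1 for Notch2, whose bright probe lies at chr3:97953914-97953973.

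The ligands split. Jag1, a Jagged ligand of mesenchyme and vessel walls, fell in 2 steps, and its paralog Jag2 rose. The Jag1 probe (chr2:136907433-136907492, minus strand) gave 427 and 423 at 0 h, 389 and 396 at 6 h, 228 and 225 at 24 h, and 188 and 178 at 72 h. The 4 times did not overlap, and the 2 arrays of a time lay close together. Against 0 h the log2 difference was -0.11 ± 0.05 at 6 h (limma, adjusted p = 0.151), -0.91 at 24 h (adjusted p = 0.000168) and -1.22 at 72 h (adjusted p = 4.55e-05), which is 2.32-fold. Most of the fall came between 6 and 24 h (-0.79, limma adjusted p = 0.000722), with a further -0.31 between 24 and 72 h (adjusted p = 0.0105). The later step was lost in 4 of 20 alternatives, among them the fit without the second 72 h array (-0.27, adjusted p = 0.0621).

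Jag2 (probe at chr12:114146887-114146946, minus strand) gave 140 and 138 at 0 h, 137 and 146 at 6 h, 169 and 170 at 24 h, and 166 and 168 at 72 h. The arrays at 24 and 72 h all lay above those at 0 and 6 h, which overlapped. Jag2 was 1.22-fold higher at 24 h than at 0 h (log2 difference 0.28 ± 0.05, limma adjusted p = 0.00625) and 1.20-fold higher at 72 h (0.26, adjusted p = 0.00622), and both calls were kept in all 20 alternatives. Scaling by the median of each array instead of its 75th percentile put these differences at 0.43 and 0.44. The ratio of Jag1 to Jag2 on an array does not depend on which common factor scales that array, though it can change with normexp or quantile normalization. Its log2 change from the 0 h mean was -0.103 and -0.172 at 6 h, -1.18 and -1.20 at 24 h, and -1.43 and -1.53 at 72 h.

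Dll1, a Delta-like ligand, gave signals not far above background, and its probe (chr17:15504623-15504682, minus strand) was printed in 10 spots. Averaged over spots it gave 28.5 and 32.8 at 0 h, 25 and 24.9 at 6 h, 25.4 and 21.8 at 24 h, and 22 and 20.4 at 72 h. Between 8 and 10 of the spots cleared background, depending on the array, and the SD between all 10 spots was 0.141 to 0.406 on the log2 scale. That SD includes outlier spots, which were dropped before averaging. Dll1 was 1.45-fold lower at 72 h than at 0 h (log2 difference -0.53 ± 0.10, limma adjusted p = 0.00705), a call kept in all 20 alternatives, although with normexp the difference was -0.15. The call at 24 h (-0.38, adjusted p = 0.0295) was lost in 10 of the 20, with adjusted p up to 0.176. The fits without either 6 h array (adjusted p = 0.0541 each), the second 0 h array (-0.28, adjusted p = 0.124) or the second 24 h array (-0.27, adjusted p = 0.113) were among them.

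**Figure D2:**
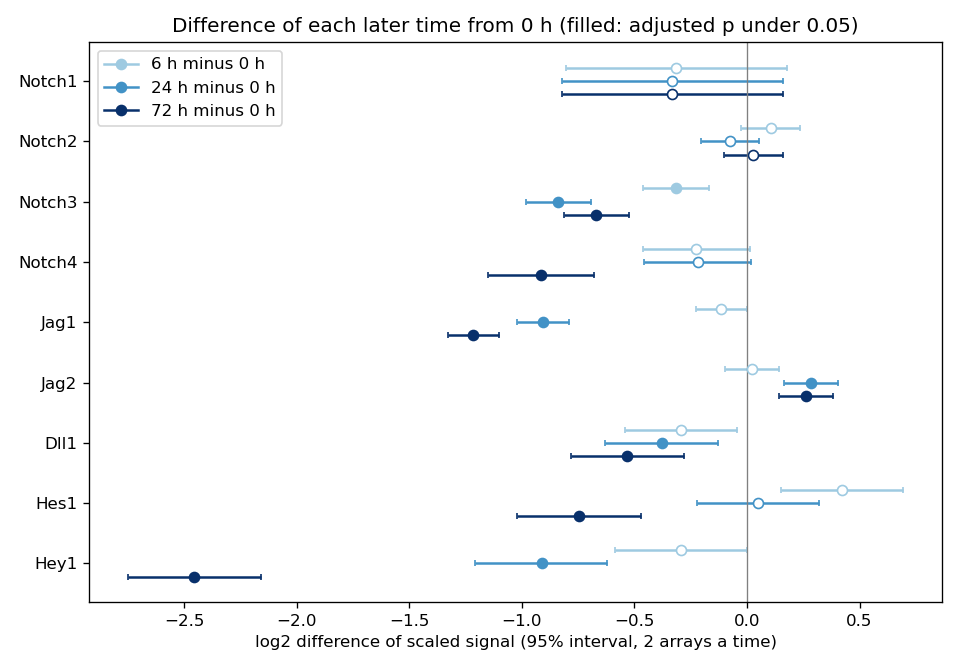
Log2 difference of scaled signal from 0 h for the 9 tested Notch genes at 6, 24 and 72 h, with 95% intervals from limma over 2 arrays a time; filled points passed the test at an adjusted p under 0.05. Jag2 is the gene whose called points lie right of 0, and Hey1 at 72 h lies furthest left at -2.46.

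Hey1 showed the largest difference of any member. It encodes a repressor that acts downstream of Notch in vessels, heart and mesenchyme, and that BMP and TGF-beta signals can also induce. The probe (chr3:8663432-8663491, minus strand) gave 1680 and 1690 at 0 h, 1350 and 1400 at 6 h, 1020 and 787 at 24 h, and 306 and 309 at 72 h. No 2 times overlapped, and each later time lay below the one before. Hey1 was 5.48-fold lower at 72 h than at 0 h (log2 difference -2.46 ± 0.12, limma adjusted p = 6.89e-05) and 1.88-fold lower at 24 h (-0.91, adjusted p = 0.00237). Its difference at 6 h, -0.29, did not pass (adjusted p = 0.15), though it did without either 24 h array (adjusted p = 0.0174). The step between 24 and 72 h was larger, at -1.54 (limma, adjusted p = 0.00267), than that between 6 and 24 h, at -0.62 (adjusted p = 0.016), and the call of the earlier step was lost without either 6 h array (adjusted p = 0.0663 and 0.0774). The difference between these steps was not tested. The 72 h difference of Hey1 ranked 156 from the lowest of 20840 genes, and 5.55% of all genes fell by more than 1 on the log2 scale at that time.

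Hes1, the widely expressed Notch target that also oscillates and answers to serum and other signals, took another course. The probe (chr16:30067820-30067879, plus strand) gave 143 and 125 at 0 h, 176 and 182 at 6 h, 152 and 126 at 24 h, and 77.7 and 81.9 at 72 h. Both arrays at 6 h were above all the others and both at 72 h were below all the others, while 0 and 24 h overlapped. The difference at 6 h was 0.42 ± 0.11 and just missed the threshold (limma, adjusted p = 0.0521), and it passed in 6 of 20 alternatives, over which the adjusted p ran between 0.0264 and 0.195. Those 6 included the fits without either 24 h array (adjusted p = 0.0321 each). Hes1 was 1.68-fold lower at 72 h than at 0 h (-0.74, limma adjusted p = 0.00265) and 2.24-fold lower at 72 h than at 6 h (-1.17, adjusted p = 0.000734). With normexp these were -0.44 and -0.73, and both calls were kept. The step between 24 and 72 h was -0.79 (limma, adjusted p = 0.00885) and did not pass without the first 72 h array (-0.76, adjusted p = 0.058).

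Heyl, a relative of Hey1 that follows Notch3 in vascular smooth muscle, had scaled signals of 5.69 and 3.75 at 0 h, 5.67 and 3.94 at 6 h, 2.82 and 3.79 at 24 h, and 2.48 and 3.46 at 72 h. None of these 8 readings was well above background, so the probe (chr4:122926975-122927034, plus strand) gives no order between times.

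**Figure D3:**
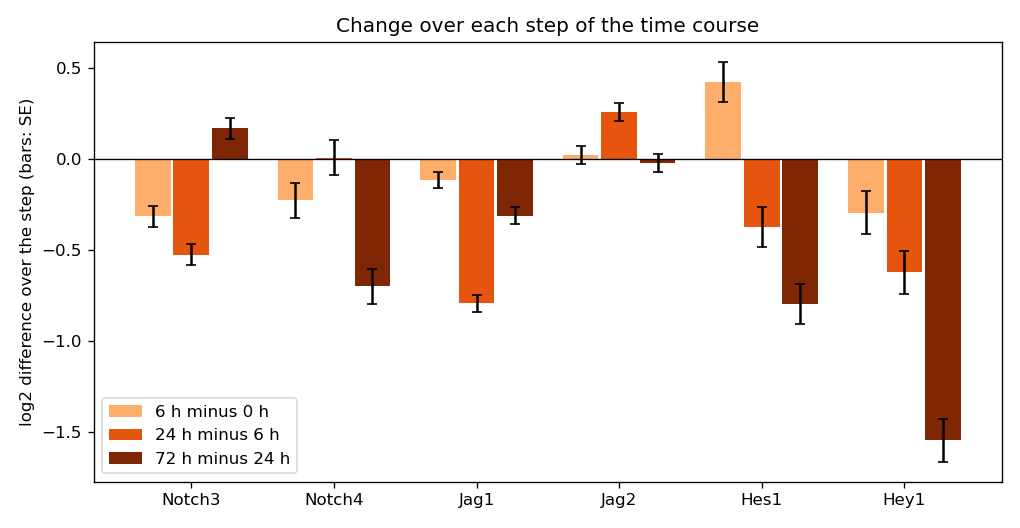
Log2 difference over each successive interval (6 h minus 0 h, 24 h minus 6 h, 72 h minus 24 h) for 6 Notch genes, as bars with the standard error from limma. The bars of Notch3 and Jag1 are longest between 6 and 24 h, and those of Notch4, Hes1 and Hey1 between 24 and 72 h.

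Different but overlapping sets of members were called over the intervals between induced times. Between 6 and 24 h, 4 members were called, Jag2 as higher and Notch3, Jag1 and Hey1 as lower, where 26.2% of all genes were called (12.6% higher, 13.6% lower). Between 24 and 72 h, 4 were called, all lower, namely Notch4, Jag1, Hes1 and Hey1, where 21.6% of all genes were called (10.8% higher, 10.9% lower). Between 6 and 72 h, 6 were called, Jag2 as higher and Notch3, Notch4, Jag1, Hes1 and Hey1 as lower, where 45.2% of all genes were called (22.9% higher, 22.4% lower). The rise of Jag2 between 6 and 24 h (0.26, limma adjusted p = 0.015) did not pass without the first 6 h array (adjusted p = 0.0768) or the second 24 h array (adjusted p = 0.0575). Its difference between 6 and 72 h (0.24, adjusted p = 0.0105) did not pass without the first 6 h array (adjusted p = 0.0565) or the second 72 h array (adjusted p = 0.0585). The count between 6 and 24 h was 2 without the first 6 h array, and that between 24 and 72 h was 2 without the first 72 h array. The difference of one gene's step from another's was not tested. As a description over the 8 arrays, which share their scaling and the 4 time means, the Pearson correlation with Hey1 was 0.962 for Notch4, 0.916 for Jag1 and 0.872 for Hes1, and that of Jag2 was -0.945 with Jag1 and -0.947 with Notch3.

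Of all 20840 genes, the values of Gucy1a1 (r = 0.9992 over 8 arrays), Ncam1 (0.9991) and Cdh11 (0.9971) were most like those of Hey1. Gucy1a1 encodes a subunit of soluble guanylate cyclase, and Ncam1 and Cdh11 encode adhesion molecules. Their log2 differences at 72 h were -2.77, -1.29 and -2.11. Closest to Jag1 were Gm8120 (0.9988), the elastin cross-linking enzyme Loxl1 (0.9986) and the collagen chaperone Serpinh1 (0.9984), with -2.65, -1.14 and -0.54 at 72 h. With 4 times and 2 arrays each, such likeness is common: 662 genes correlated above 0.95 with Hey1 and 1093 with Jag1.

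Markers of mural cells and smooth muscle, where Notch3, Jag1 and Heyl are best known, also changed, and their sum rose between 0 and 6 h. Their summed scaled signal was 7640 to 7790 at 0 h, 20700 to 21900 at 6 h, 18600 to 20300 at 24 h and 18400 to 19500 at 72 h. Of the 6 markers, 3 were well above background on all arrays, and Myh11 and Cspg4 on none. At 72 h the actin Acta2 differed from 0 h by 1.37 and the calponin Cnn1 by -3.16 on the log2 scale. Des differed by 0.10 and was not called, so the list did not move as one. At 6 h Acta2 already stood at 1.52, while Cnn1 stood at -0.18 and was not called. Sums follow their brightest probes. The fibroblast sum lay at 205000 to 207000 at 72 h, against 220000 to 224000 at 0 h, while its members differed in both directions, with Pdgfrb at -1.62, Pdgfra at -1.19 and Col1a2 at -0.92, and with Vim at 0.65 and Twist1 at 0.54, all called. Lum was above background on 1 array at 0 h, on 2 each at 6 and 24 h, and on no array at 72 h.

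Some markers of other cell types moved as well. The macrophage sum was 405 to 441 at 0 h, 735 to 779 at 6 h, 709 to 741 at 24 h and 561 to 611 at 72 h, and only Csf1r of its 6 markers was well above background on all arrays (log2 differences from 0 h of 0.88 at 6 h and 0.44 at 72 h, both called). Cd68 was above background on no array at 0 h and was at least 2.92-fold higher at 72 h (limma, adjusted p = 0.000133). The epithelial sum was 1110 to 1390 at 0 h, 1240 to 1260 at 6 h, 1610 to 1910 at 24 h and 1860 to 1920 at 72 h, with 3 of 6 markers above background on all arrays: Krt8 (log2 difference 0.93 at 72 h), Krt18 (0.34) and Krt19 (-1.46), all called. The glial and neural sum was 2580 to 2760 at 0 h, 4830 to 4880 at 6 h, 4080 to 4230 at 24 h and 2980 to 2990 at 72 h, with Nes at 0.93 at 6 h and 0.19 at 72 h, both called, and Pax6 at background throughout. The endothelial sum stayed within 867 to 956 on all arrays, with 2 of 9 markers, Pecam1 and Kdr, above background on all of them and not called, while Tek was above background on both arrays at 0 h and on none at 24 or 72 h, and it was at least 2.7-fold lower at 72 h than at 0 h (limma, adjusted p = 0.00137). The part of a changed cell state or mixture in the Notch differences was not tested, and in RNA from whole cultures fewer cells of a type and less RNA per cell cannot be told apart.

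The wider pathway was read from a list of 64 other Notch genes, of which 54 were tested. At 6 h, 6 were higher and 10 lower than at 0 h, 29.6% of those tested, beside 17.6% of all genes. At 24 h, 8 were higher and 24 lower (59.3%, beside 41.5% of all genes). At 72 h, 13 were higher and 21 lower (63%, beside 52%). The median of the 54 log2 differences was -0.0409 at 6 h, -0.136 at 24 h and -0.0798 at 72 h. The direction of this list depended on the scaling. With each array scaled by its median, 5 were higher and 2 lower at 6 h, 12 higher and 9 lower at 24 h, and 17 higher and 11 lower at 72 h. Under that scaling the median of all genes itself was 0.0573, 0.133 and 0.183 at 6, 24 and 72 h. The count of 16 at 6 h was 9 without either 0 h array, 7 without the first 6 h array and 6 without the second, and the count of 34 at 72 h was 22 without the first 72 h array.

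Among the nuclear partners, Rbpj, the DNA-binding protein through which Notch acts, was higher at every induced time. It gave 1150 and 1220 at 0 h, 1550 and 1560 at 6 h, 1900 and 2050 at 24 h, and 1870 and 1850 at 72 h. The induced arrays all lay above those at 0 h. A second probe gave log2 differences of 0.50, 0.74 and 0.84 at 6, 24 and 72 h. With every probe tested on its own, it did not pass at 6 h (limma, adjusted p = 0.0977). For the probe that stood for the gene, the log2 difference from 0 h was 0.39 ± 0.06 at 6 h (limma, adjusted p = 0.00935), 0.73 at 24 h (adjusted p = 0.000413) and 0.65 at 72 h (adjusted p = 0.000346). The calls at 24 and 72 h were kept in all 20 alternatives and that at 6 h was lost in 4, with adjusted p up to 0.0638, among them the fits without the first 0 h array (0.35, adjusted p = 0.0513) or either 6 h array (adjusted p = 0.0508 and 0.0603).

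Tle2, Tle3 and Tle4, Groucho-type corepressors that Hes proteins recruit, were lower at 24 and 72 h than at 0 h. Tle3 gave 7790 and 8080 at 0 h, 9620 and 10200 at 6 h, 4960 and 4820 at 24 h, and 3190 and 3420 at 72 h. It stood 1.25-fold above 0 h at 6 h (0.32 ± 0.06, limma adjusted p = 0.019, lost in 6 of 20 alternatives), 1.62-fold below it at 24 h (-0.70, adjusted p = 0.000588) and 2.40-fold below it at 72 h (-1.26, adjusted p = 6.24e-05). The call of Tle3 at 6 h did not pass without either 0 h array (limma, adjusted p = 0.0899 and 0.0673) or either 6 h array (adjusted p = 0.0558 and 0.104). Tle4 was 1.96-fold lower at 72 h than at 0 h (-0.97, limma adjusted p = 0.0024), with -0.31 under normexp. A second Tle4 probe gave -0.33 at 24 h and -0.76 at 72 h. With every probe tested on its own, neither passed (limma, adjusted p = 0.459 and 0.0974). Tle2 fell to 28.7 and 30.7 at 24 h, against 107 and 290 at 0 h, where the 2 arrays differed widely (-2.57 ± 0.43, limma adjusted p = 0.00586, and -1.36 with normexp). Its call at 72 h (-1.31, adjusted p = 0.048) was lost in 10 of 20 alternatives, among them the fits without any one of the 6, 24 or 72 h arrays (adjusted p = 0.0757 to 0.159). Without the second 0 h array, or the first 24 h array, Tle4 did not pass at 24 h (adjusted p = 0.0677 and 0.0651). Over all 14 nuclear genes tested, 4 were higher and 8 lower at 72 h, or 85.7% called, beside 52% of all genes (27.5% higher and 24.6% lower).

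Of 9 tested genes that cut the receptor, 2 were higher and 3 lower at 72 h, a share called of 55.6% that is close to the 52% of all genes. The gamma-secretase subunits Aph1a (-0.60, limma adjusted p = 0.000175) and Aph1b (-0.52, adjusted p = 0.000427) and the protease Adam10 (-0.41, adjusted p = 0.00194) were the lower ones. A second probe at 72 h gave -0.33 for Aph1a and -0.34 for Aph1b. Neither passed with every probe tested on its own (limma, adjusted p = 0.0701 and 0.0601). The catalytic subunit Psen2 was 1.32-fold higher at 6 h (0.40, adjusted p = 0.00834) and differed by -0.06 at 72 h (adjusted p = 0.409). Adam10 lost its 72 h call under median scaling (-0.23, limma adjusted p = 0.0757) and Psen2 its 6 h call in 2 of 20 alternatives, one of them the fit without the second 6 h array (adjusted p = 0.0563).

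Of 5 further ligands or ligand-like genes tested, 0 were higher and 1 lower at 72 h, a share called of 20%, beside 52% of all genes. The lower gene was Dll4 (-0.71 ± 0.12, limma adjusted p = 0.00424). Its signals were 24.7 and 30.4 at 72 h, against 43.3 and 46.4 at 0 h, and with normexp the difference was -0.26 and did not pass (adjusted p = 0.087). Among the 5 sugar-modifying enzymes, 0 were higher and 2 lower at 24 h, or 40%, beside 41.5% of all genes. Of these, the fringe Mfng, which adds sugars to the receptor's EGF repeats, was 1.55-fold lower at 24 h (-0.64, limma adjusted p = 0.0105, and -0.33 with normexp). A second Mfng probe gave -1.15 at 24 h and did not pass with every probe tested on its own (limma, adjusted p = 0.142). The Mfng call did not pass in 2 of 20 alternatives, one of them the fit without the second 0 h array (-0.55, adjusted p = 0.0541).

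Of 13 tested ubiquitin ligases and endocytic adaptors, 4 were higher and 4 lower at 72 h (61.5%, beside 52% of all genes, 27.5% higher and 24.6% lower). Neurl1a, a ligase of the neuralized family that acts on ligands, was lower at 6 h (-0.51, limma adjusted p = 0.00525), 24 h (-0.95, adjusted p = 0.000253) and 72 h (-0.66, adjusted p = 0.000415), and its second probe gave -0.96 at 24 h. Its signals were 795 and 774 at 24 h, against 1460 and 1580 at 0 h. Of the deltex ligases, Dtx4 was 1.5-fold higher at 72 h (0.59, limma adjusted p = 0.000554) and Dtx2 1.44-fold lower (-0.53, adjusted p = 0.000933).

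Of 8 other tested genes listed as Notch targets, 3 were higher and 4 lower at 72 h (87.5%, beside 52% of all genes, 27.5% higher and 24.6% lower). Cd44, the hyaluronan receptor, was higher at 6 h (0.72, limma adjusted p = 0.00206), 24 h (0.93, adjusted p = 0.00026) and 72 h (0.54, adjusted p = 0.000804), and 2 other Cd44 probes gave 1.28 and 1.84 at 72 h. Id3, a helix-loop-helix inhibitor that BMP signals also induce, was 1.62-fold lower at 24 h (-0.70, limma adjusted p = 0.00289) and 1.55-fold lower at 72 h (-0.63, adjusted p = 0.00296). Bhlhe41 was not well above background at 0 h and was at least 2.78-fold higher at 24 h and at least 2.48-fold higher at 72 h (limma, adjusted p = 0.027 and 0.0268). Those bounds set the 0 h level at the dimmest reading that still cleared background, array by array, and the calls were lost in 5 and 6 of 19 alternatives (adjusted p up to 0.111 and 0.11). Both were lost without either 0 h array, the first also without the first 24 h array and the second without either 72 h array. With every signal held at or above 1 common floor the log2 differences were 1.29 and 1.12, below what these bounds state, and neither passed (limma, adjusted p = 0.0735 and 0.0918). The targets Hes3, Hes5, Hey2 and Nrarp were not well above background on both arrays of any one time and were, like Heyl, not tested. Nrarp read 4.74 and 3.84 at 0 h, 8.3 and 6.21 at 6 h, 11 and 13.3 at 24 h, and 18.2 and 15.2 at 72 h. Hey2 read 6.65 and 3.31 at 0 h and 2.28 and 3.16 at 72 h.

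**Figure D4:**
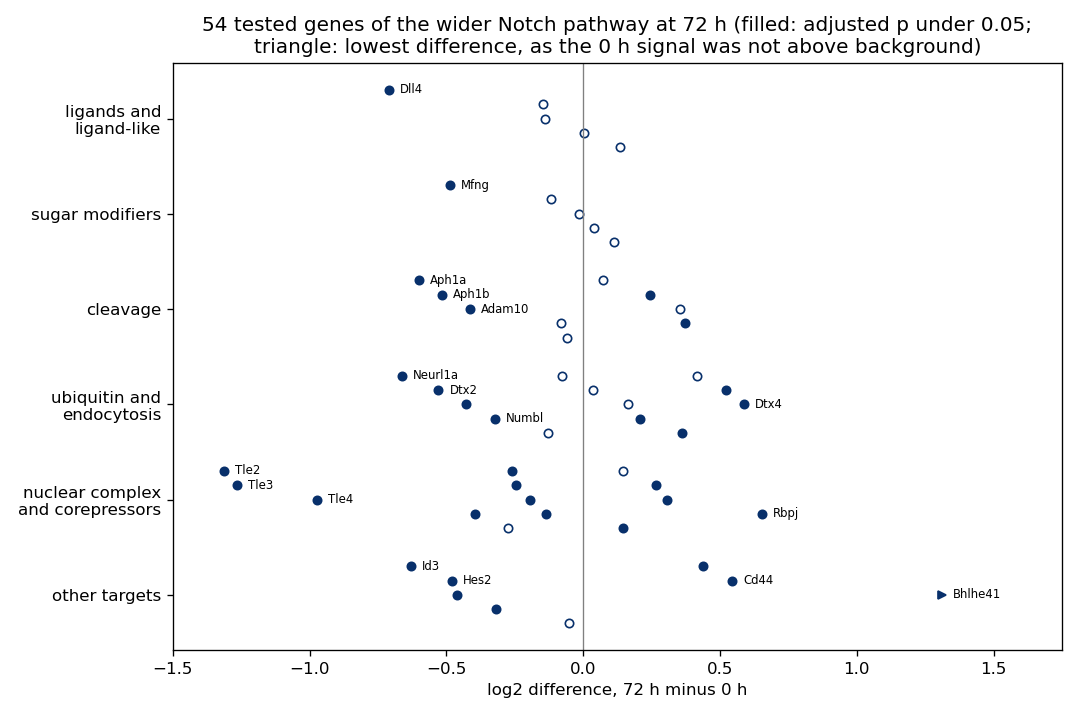
Log2 difference of 72 h minus 0 h for the 54 tested genes of the wider Notch list, a point per gene, by role. Filled points passed the test. Bhlhe41, not well above background at 0 h, is drawn as a triangle at the bound given in the text and not at its log2 difference. Points lie on both sides of 0 in most roles, with Tle2, Tle3 and Tle4 furthest to the left and Bhlhe41, Rbpj, Dtx4 and Cd44 among those to the right.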

How the data were processed

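Total RNA of 8 samples was extracted with Sepazol and labelled with Cy3, per the labels' protocols. Per the file headers, the authors quantified the scans with Feature Extraction (10.5.1.1) and used mm9 coordinates, while the submitters' processing notes name version 10.7.3.1. The deposited processed signal is an intensity per spot on a linear scale. The authors also deposited these intensities in a value table, equal within 0.497%, which served as an alternative.

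Signals were put on the log2 scale and each array's 75th percentile over non-control spots (370.3 to 393) was subtracted. Outlier spots were dropped (146 to 208 per array) and the spots of a probe averaged. Of 55681 probes, 28610 were kept, namely those with at least 50% of their spots well above background on both arrays of 1 time or more, and the brightest probe stood for its gene. Names came from RefSeq accessions for 26582 probes, symbols for 2602 and synonyms for 492, and 26005 kept the file's name. Differences were tested with limma 3.58.1 (R 4.3.3; 4 time means, 4 residual degrees of freedom, prior 1.7) and adjusted by Benjamini-Hochberg over 20840 genes, with a threshold of 0.05. The fit was tested on simulated data. The number of arrays limits the precision. Reading used the R packages data.table (1.17.8) and jsonlite (2.0.0). Plots were made in matplotlib 3.10.9 under Python 3.11.15.

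The members, the wider list of 64 genes and the marker lists were chosen with earlier results of these data known. Named from the wider list were at most the 4 largest called differences of each role, and from all genes the 3 whose values correlated best with each member called at 24 or 72 h with a difference from 0 h of at least 1 on the log2 scale. The 20 alternatives were normexp with an offset of 50, median and quantile scaling, 2 filters on dim probes, the value table, only the 2 times compared, 2 ways to join probes, a common floor, limma with a trend, a replicate block, and each of the 8 arrays left out. Promoter windows were RefSeq's, on GRCm38.p6, and matched 7 of the 10 members.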

Additional observations from a re-analysis of the deposited data

Results flagged for a closer look

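Tle3 differed from 0 h in opposite directions at different times. Both arrays at 6 h lay above those at 0 h, and both at 24 h and both at 72 h lay below them. The log2 difference of 24 h minus 6 h was -1.02 and that of 72 h minus 6 h was -1.58, both called by limma. Those contrasts test the induced times against each other and not the rise from 0 h to 6 h. The opposite direction rests on the call at 6 h (0.32), which was lost in 6 of 20 alternatives, among them the fits without any one of the 0 h or 6 h arrays. The comparisons with 0 h share its arrays.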

How the results depend on the processing

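Over the 20 alternatives no difference of the 9 members changed from a call in one direction to a call in the other, and 7 members were called at 72 h against 0 h under every one. Leaving out an array leaves its time with 1 array, assumed to vary like the others. At 6 h, where 1 member was called, the count was 2 with normexp, with the filter for signal on all 8 arrays, with a common floor and with a trend, and 0 with median scaling, with no filter and with only the 2 times compared. For 24 h minus 6 h the count of 4 became 2 with no filter and 2 with only the 2 times compared, and for 72 h minus 24 h the count of 4 became 1 with only the 2 times compared. Leaving out 1 array in turn gave 0 to 3 members at 6 h, 4 to 6 at 24 h and 7 at 72 h against 0 h, and 2 to 5 for 24 h minus 6 h, 2 to 4 for 72 h minus 24 h and 5 to 6 for 72 h minus 6 h. In the wider list the count at 6 h (16) was 7 with median scaling, 3 with no filter and 9 with only the 2 times compared, that at 24 h (32) was 21 with median scaling, and that at 72 h (34) was 22 with no filter. Without 1 array these were 6 to 16, 24 to 29 and 22 to 34, the lowest at 72 h without the first 72 h array. Pofut1 at 24 h turned from -0.14 to 0.0050 with median scaling and 0.0023 with the mean over probes, Hdac1 at 24 h became 0.0041 and Tle1 at 72 h 0.046 with median scaling, and none of these 4 values passed the test. The cause of these changes was not tested, except that fits with fewer arrays or times have fewer degrees of freedom.

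Of all genes called against 0 h, 58.8%, 51.5% and 52.7% were higher at 6, 24 and 72 h, compared with 76.9%, 74.7% and 75.1% under median scaling and 47%, 48.4% and 51.7% under quantile normalization. Arrays of one replicate number, which also share a slide column, deviated together with correlations of 0.0557 to 0.171, and the labels do not say that the numbers pair the samples. With the replicate number as a block the member counts stayed at 1, 5 and 7 against 0 h and 4, 4 and 6 between later times, and the wider list gave 19, 32 and 34. Dim signals limit Dll1, Notch4 and Hes1, whose differences shrank with normexp, and Heyl could not be tested.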
